A study of Homo sapiens with 6 samples.

Results

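The genes that bring iron into the cell, store it, export it and sense it were followed in SNU-387, an established line from a human pleomorphic hepatocellular carcinoma. The 9 genes were taken from a given list of iron genes. No rule on their measured values picked them, but the list was chosen with earlier results of these data known. They were TFRC, STEAP3 and SLC11A2 for uptake, FTH1, FTL and NCOA4 for storage, SLC40A1 for export, and IREB2 and ACO1 for sensing. All 9 were found among the 58219 gene identifiers of the files, and all 9 passed the filter on low counts that left 14239 genes to test. RNA from cells that stably express a non-target short hairpin RNA (shNT, n = 3) was compared with RNA from cells that stably express a hairpin against YES1, a SRC-family tyrosine kinase (shYES1, n = 3). Cells cut such a hairpin down to a small RNA, which then silences transcripts of matching sequence. Both groups are stable SNU-387 lines, and how many hairpins or clones stand behind a group was not stated in the labels.

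As background, cells take up iron bound to transferrin through the transferrin receptor, reduce it in the endosome and pass it to the cytosol. Iron that is not used at once is stored inside ferritin, a shell built of heavy and light chains, and is set free when NCOA4 carries ferritin to the lysosome. The iron regulatory proteins sense the cytosolic iron pool. When iron is scarce they bind a stem-loop called the iron-responsive element (IRE): in the 5' UTR of the ferritin and ferroportin transcripts this blocks translation, and in the 3' UTR of the transferrin receptor transcript it protects the RNA from decay. The liver stores iron in ferritin and sets the iron balance of the body by secreting hepcidin. RNA counts do not measure the block on translation.

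The elements are shown first because 4 of the 9 genes, FTH1, FTL, SLC40A1 and TFRC, hold a match to it in an annotated UTR. They were read from the GENCODE release 29 transcripts on GRCh38, by searching the annotated UTRs of the 9 genes for a C, 5 bases, the loop CAGTGN and 5 bases that can all pair with the first 5 (Watson-Crick or G with T). Each is printed 5′ to 3′ on the transcript strand with T for U, and the capitals mark the loop.
FTH1, 5' UTR, chr11:61967574-61967602, minus strand: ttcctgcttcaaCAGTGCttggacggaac
FTL, 5' UTR, chr19:48965335-48965363, plus strand: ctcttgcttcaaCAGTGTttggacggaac
SLC40A1, 5' UTR, chr2:189580661-189580689, minus strand: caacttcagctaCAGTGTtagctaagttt
TFRC, 3' UTR, chr3:196050979-196051007, minus strand: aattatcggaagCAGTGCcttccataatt
TFRC, 3' UTR, chr3:196050575-196050603, minus strand: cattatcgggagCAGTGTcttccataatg
TFRC, 3' UTR, chr3:196050510-196050538, minus strand: ctgtatcggagaCAGTGAtctccatatgt
TFRC, 3' UTR, chr3:196050463-196050491, minus strand: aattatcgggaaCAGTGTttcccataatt

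The FTH1 and FTL elements were the same at 26 of 29 bases, and the FTH1 and SLC40A1 elements at 13 of 29. TFRC held 4 such elements in its 3' UTR. No element of this form was found in the annotated UTRs of STEAP3, SLC11A2, NCOA4, IREB2 or ACO1, which says only that these letters are not there. An element that departs from this form would be missed, in these genes and in TFRC. The search therefore does not show that SLC11A2 or any other of these genes lacks an iron-responsive element. Over all genes, 0.152% of 17772 annotated 5' UTRs and 0.648% of 18816 annotated 3' UTRs held a match (the longest UTR of at least 50 bases for each gene).

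Gene reads per library ranged from 11290889 to 18944148. The label of the hairpin was checked on YES1, which lay between 178 and 181 CPM in shNT and between 42.9 and 46.0 CPM in shYES1, 4.06-fold lower (edgeR adjusted p = 7.93e-40). CPM are read counts scaled to a common library total, with TMM factors, which evens out the composition of the libraries. Libraries of a group differed from each other by more than sampling noise (chi-square per degree of freedom 1.147 to 2.202), so none was treated as a duplicate. Nothing in the labels says that the 3 libraries of a group come from separate cultures. The p-values therefore rest on the spread between libraries, which may be technical. In a bulk sample fewer cells with a transcript and less of it per cell cannot be told apart. The line carried little hepatocyte RNA: of 10 hepatocyte markers only SERPINA1 and TF were expressed enough to test, HNF4A, TTR and CYP3A4 had 0 reads in every library, and the summed level of the 10 was 20.7 to 24.0 CPM in shNT and 19.8 to 22.1 CPM in shYES1. Immune markers summed to 0.605 to 1.62 CPM in shNT and 0.766 to 1.198 CPM in shYES1, and red cell markers to at most 0.153 CPM in any library. The summed level of 6 fibroblast and mesenchymal markers was 5741 to 6079 CPM in shNT and 6630 to 6751 CPM in shYES1 (4 rose and 2 fell). Most of it came from COL1A2 and COL1A1 (means 4337 and 1481 CPM in shNT). The sum of 4 endothelial markers was 24.8 to 25.9 CPM in shNT and 23.1 to 23.7 CPM in shYES1. Of the 3 tested, 1 rose, 1 fell and 1 was not called. Both sums moved with the hairpin, and their part in the results was not tested.

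In shYES1 cells 8 of the 9 iron genes were lower than in shNT and STEAP3 was slightly higher. The ferritin heavy chain gene FTH1, among the most abundant transcripts of these cells, was 2.17-fold lower, while the light chain gene FTL was 1.13-fold lower. The receptor gene TFRC, the ferritin receptor gene NCOA4 and the sensor genes IREB2 and ACO1 were each 1.40-fold to 1.58-fold lower. The exporter gene SLC40A1 was 2.37-fold lower from a very low level. All 9 passed an edgeR adjusted p of 0.05, a rule that 65.3% of the 14239 tested genes passed. Of all tested genes 32.5% were called higher and 32.8% lower. The share of members called lower was above this background, but the members were chosen with earlier results of these data known. The median log2 fold change was -0.52 over the 9 genes and -0.00469 over all tested genes, and the median size without regard to sign was 0.52 against 0.30. For each of the 9 genes the shNT and shYES1 libraries did not overlap, as was so for 67.9% of all tested genes.

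**Figure D1:**
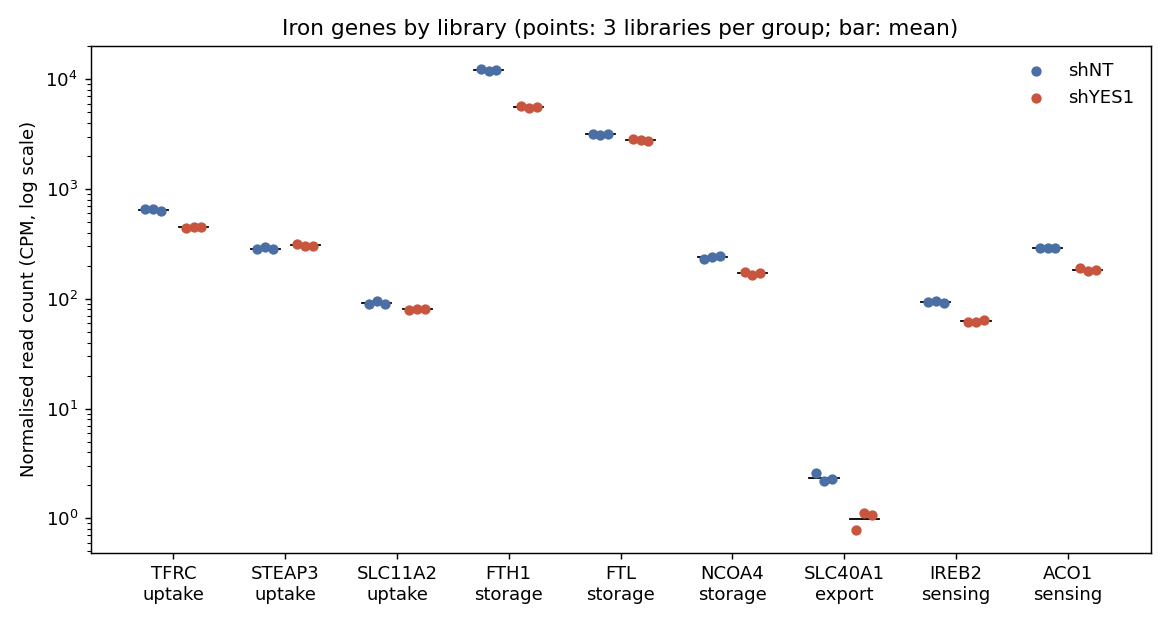
Normalised read count (CPM, log axis) of the 9 iron genes in each library, 3 shNT and 3 shYES1, with the group mean as a bar. The drop of FTH1 from 12132 to 5584 CPM stands beside the small step of FTL from 3171 to 2797 CPM, and SLC40A1 lies near 1 to 3 CPM.

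The ferritin chain genes FTH1 and FTL stood highest by CPM in both groups. FTH1 (ENSG00000167996.15, chr11:61959718-61967660, minus strand) encodes the ferritin heavy chain, which oxidises ferrous iron on its way into the shell. It measured 12418, 11949 and 12028 CPM in shNT libraries 1 to 3 and 5703, 5490 and 5558 CPM in shYES1 libraries 1 to 3. Every shYES1 library therefore lay far below every shNT library, and the spread within a group was small. The means were 12132 ± 251 and 5584 ± 109 CPM (SD, n = 3 each), a log2 fold change of -1.12 (95% interval -1.17 to -1.07, edgeR adjusted p = 1.52e-37). Its share of all gene reads was 1.157% to 1.198% in shNT and 0.568% to 0.586% in shYES1. FTH1 and SLC40A1 were called with a change of at least 2-fold, as were 8.72% of tested genes.

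FTL (ENSG00000087086.14, chr19:48965301-48966878, plus strand) encodes the light chain, which helps the iron core form. It measured 3193, 3122 and 3197 CPM in shNT and 2883, 2776 and 2733 CPM in shYES1. The groups were apart but close. FTL fell by 0.18 on the log2 scale (95% interval -0.23 to -0.13, edgeR adjusted p = 5.11e-09), which is 1.13-fold. With library-size scaling the change was -0.08 and with scaling on genes whose 3' UTR lacks the sequence CCTTTC it was -0.27. The change did not pass a test against a minimum of 1.2-fold.

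The balance of the ferritin chains was then read within each library. FTH1 reads per FTL read numbered 3.89, 3.83 and 3.76 in shNT and 1.98, 1.98 and 2.03 in shYES1. This ratio needs no scaling between libraries, and the 3 values of each group lay close together. It was 1.92-fold lower in shYES1, and the exact two-sided permutation test gave p = 0.1, the smallest that 3 against 3 libraries can reach (0.133 adjusted over the 4 ratios computed). Per kilobase of annotated exon, FTH1 stood at 5976 ± 123 and FTL at 3611 ± 47.5 CPM per kb in shNT, and at 2751 ± 53.5 and 3186 ± 88.1 in shYES1. That order rests on the length used: with the principal transcripts of 1229 and 878 bases, FTH1 stayed above FTL in shYES1 (4543 ± 88.4 against 3186 ± 88.1 CPM per kb, with 9871 ± 204 against 3611 ± 47.5 in shNT).

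Ferritin genes have many processed copies in the genome, and a read that fits several places is counted for no gene. Of 42 annotated copies (25 named after FTH1 and 16 after FTL, and FTHL17), 23 had reads. Together they held 1.12% to 1.32% of the number of reads counted for FTH1 and FTL. The FTH1 copies summed to 159, 176 and 166 CPM in shNT and to 88.4, 72.8 and 72.8 CPM in shYES1, apart in the same direction as FTH1. The FTL copies summed to 22.1 to 23.3 CPM in shNT and 19.7 to 23.3 CPM in shYES1, which overlapped. Whether these reads come from the copies or from the parent genes was not tested. Multimapping reads were 6.01% to 6.52% of all reads in every library, and reads of that kind are missing from the values of both ferritin genes.

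NCOA4 (ENSG00000266412.5, chr10:46005088-46030714, minus strand) encodes the receptor that delivers ferritin to the lysosome for iron release. It measured 231, 238 and 247 CPM in shNT and 176, 166 and 171 CPM in shYES1. The shYES1 libraries were all lower, and the log2 fold change was -0.48 (95% interval -0.54 to -0.42, edgeR adjusted p = 5.89e-19). NCOA4 reads per FTH1 read were 0.0197 ± 0.000965 in shNT and 0.0306 ± 0.000391 in shYES1, 1.55-fold higher (n = 3 each, exact permutation p = 0.1, adjusted 0.133). Here too no library of a group reached the other group.

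Of the uptake genes TFRC and SLC11A2 fell and STEAP3 rose. TFRC (ENSG00000072274.12, chr3:196027183-196082189, minus strand) encodes the transferrin receptor. It measured 656, 655 and 627 CPM in shNT and 445, 453 and 455 CPM in shYES1. All shYES1 libraries were lower, with a log2 fold change of -0.52 (95% interval -0.57 to -0.47, edgeR adjusted p = 4.05e-23), or 1.43-fold. TFRC reads per FTH1 read were 0.0533 ± 0.00137 in shNT and 0.0808 ± 0.00247 in shYES1, a 1.52-fold higher ratio with no overlap of the libraries (n = 3 each, exact permutation p = 0.1, adjusted 0.133). As with NCOA4, the ratio rose because TFRC fell less than FTH1 (2.17-fold lower), which holds for most tested genes. The TFRC transcript, with 4 elements of the searched form in its 3' UTR, was thus lower. So was the heavy chain transcript, with its element in the 5' UTR.

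STEAP3 (ENSG00000115107.19, chr2:119223831-119265652, plus strand) encodes the endosomal reductase that turns ferric into ferrous iron. It measured 285, 294 and 282 CPM in shNT and 313, 305 and 303 CPM in shYES1. The shYES1 libraries were higher by a small step, with a log2 fold change of 0.10 (95% interval 0.04 to 0.15, edgeR adjusted p = 0.0015), or 1.07-fold. This rise depends on the scaling: it was 0.19 with library size only and 0.0079 (adjusted p = 0.815) with scaling on genes without CCTTTC, and it did not pass the test against 1.2-fold.

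SLC11A2 (ENSG00000110911.14, chr12:50979401-51028566, minus strand) encodes DMT1, the transporter that moves ferrous iron out of the endosome. It measured 90.2, 94.7 and 89.8 CPM in shNT and 79.6, 80.5 and 81.5 CPM in shYES1. The groups were apart by a small gap, with a log2 fold change of -0.18 (95% interval -0.26 to -0.11, edgeR adjusted p = 2.88e-05). With library-size scaling it was -0.09 (adjusted p = 0.0383), and it did not pass the test against 1.2-fold. SLC11A2 transcripts differ in their 3' ends, and counts per gene do not tell them apart.

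Export was carried by few reads. SLC40A1 (ENSG00000138449.10, chr2:189560579-189583758, minus strand) encodes ferroportin, the iron exporter that hepcidin removes from the cell surface. It had 32, 29 and 36 reads in shNT and 13, 13 and 21 reads in shYES1, or 2.59, 2.19 and 2.28 CPM against 0.791, 1.11 and 1.07 CPM. Every shYES1 library was lower, but with so few reads the size is loosely set. The log2 fold change was -1.24 with a 95% interval from -1.73 to -0.75 (edgeR adjusted p = 1.61e-05). The element printed above lies in 1 of its 5 annotated transcripts with a 5' UTR.

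The sensor genes fell side by side. IREB2 (ENSG00000136381.12, chr15:78437431-78501456, plus strand) encodes iron regulatory protein 2, which is degraded when iron is plentiful. It measured 93.4, 94.7 and 91.6 CPM in shNT and 61.2, 61.8 and 64.0 CPM in shYES1, a log2 fold change of -0.58 (95% interval -0.66 to -0.50, edgeR adjusted p = 6.10e-18). ACO1 (ENSG00000122729.18, chr9:32384603-32454769, plus strand) encodes iron regulatory protein 1, which is a cytosolic aconitase while it holds an iron-sulfur cluster and binds RNA without it. It measured 292, 290.1 and 290.3 CPM in shNT and 190.2, 178 and 182 CPM in shYES1, a log2 fold change of -0.66 (95% interval -0.72 to -0.60, edgeR adjusted p = 4.49e-25). In neither gene did any shYES1 library reach the shNT range.

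ACO1 reads per IREB2 read were 3.13, 3.06 and 3.17 in shNT and 3.11, 2.88 and 2.85 in shYES1. These values overlap between the groups, and the ratio was 1.06-fold lower in shYES1 (exact permutation p = 0.2, adjusted 0.2). With 3 libraries a group the exact permutation test cannot go below p = 0.1, so it says nothing on whether the sensor genes fell alike.

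**Figure D2:**
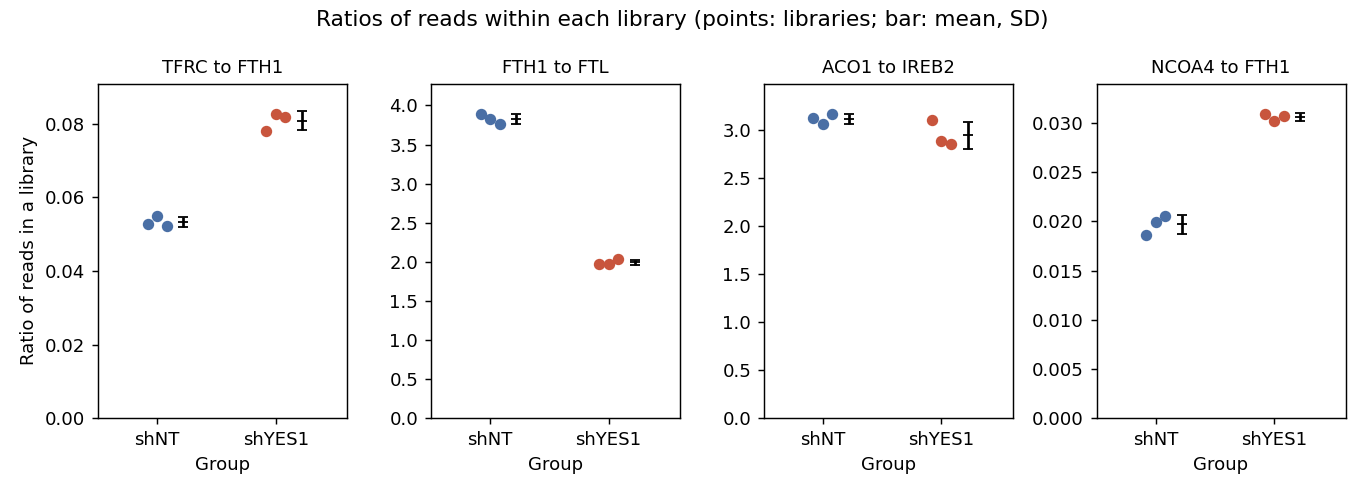
Reads of a gene per read of another gene in the same library (points), with the group mean and SD (bars) for shNT and shYES1, n = 3 each, on axes that start at 0. FTH1 per FTL was lower in every shYES1 library, TFRC per FTH1 and NCOA4 per FTH1 were higher in every one, and ACO1 per IREB2 overlapped. A ratio to FTH1 rises for any gene that fell less than FTH1.

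By level per kilobase of annotated exon, the order in shNT was FTH1, FTL, TFRC (81.9 ± 2.07 CPM per kb), STEAP3 (62.9 ± 1.45), NCOA4 (58.6 ± 1.88), ACO1 (38.5 ± 0.149), SLC11A2 (9.03 ± 0.266), IREB2 (8.63 ± 0.142) and SLC40A1 (0.544 ± 0.0474). In shYES1, FTL stood before FTH1 and STEAP3 (67.3 ± 1.17 CPM per kb) before TFRC (57.2 ± 0.699), and the rest kept their places, from NCOA4 at 41.9 ± 1.30 to SLC40A1 at 0.229 ± 0.0404 CPM per kb. No neighbours in either order overlapped in their 3 libraries. Annotated exon length counts every isoform, so these levels are approximate.

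**Figure D3:**
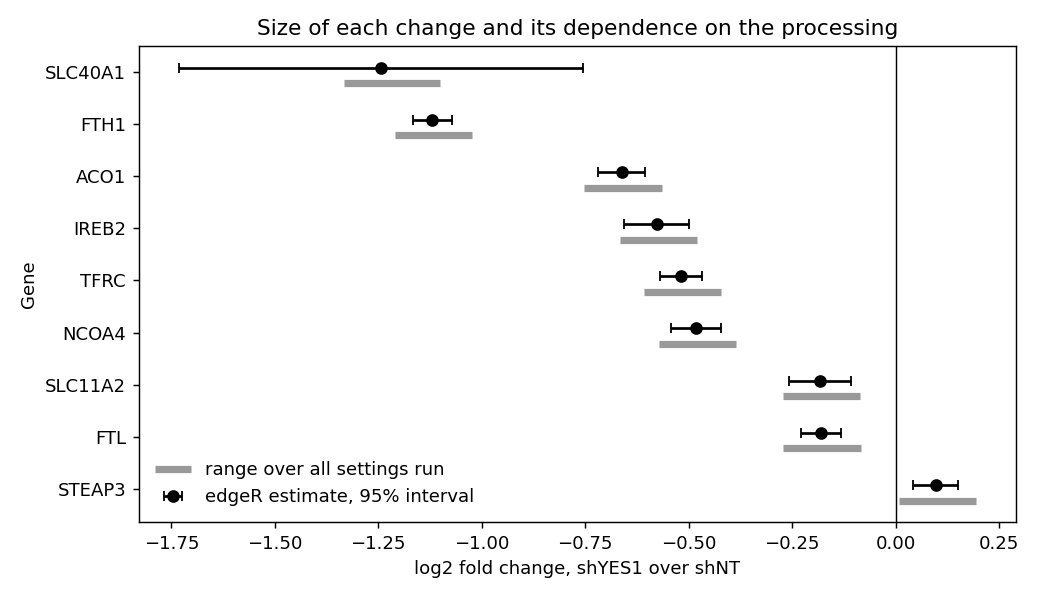
log2 fold change of shYES1 over shNT for each iron gene with its 95% interval (black), and the range of the estimate over all settings run (grey). FTH1 and SLC40A1 lie beyond -1, FTL and SLC11A2 lie close to 0, and the grey range of STEAP3 reaches down to 0.0079.

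The balance of all calls moved with the scaling, which matters most for the small changes above. TMM put 49.7% of the called genes on the higher side. The share was 60.7% when only library size was used and 38.7% with scaling on genes whose 3' UTR lacks CCTTTC, a sequence that an earlier analysis of these same data singled out. The median of all genes was 0.09 with library size only, and -0.09 when genes lacking CCTTTC set the scale. In the longest annotated 3' UTR of each gene, read on the transcript strand, TFRC, STEAP3, NCOA4, SLC40A1, IREB2 and ACO1 held CCTTTC, and FTH1, FTL and SLC11A2 did not. The sequence was present in 45.6% of tested genes with such a UTR. Those genes had a median log2 fold change of -0.08 and 44.3% were called lower, against 0.09 and 26.2% without it. The genes with and without the sequence were not matched for UTR length. The part of CCTTTC in the changes of the iron genes was not tested.

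Around the 9 genes, other iron uptake genes were lower as well. In a list of 12 other genes of iron uptake and reduction, 8 were tested, 6 fell, TF rose and MELTF was not called (median -0.92). For this and each list below, the shares over all tested genes were 32.5% called higher and 32.8% called lower. No list was tested as a set. SLC39A8, a metal importer, fell from 117 ± 1.77 to 49.1 ± 1.84 CPM (log2 fold change -1.26). SLC39A14, which takes up iron that is not bound to transferrin in the liver, fell from 313 ± 21.6 to 147.9 ± 0.575 CPM (-1.08). The reductase genes STEAP1 (from 39.0 to 19.6 CPM), STEAP2 (60.9 to 29.5 CPM) and CYBRD1 (366 to 205 CPM), named here after their values were seen, fell too. TF, which encodes transferrin, rose from a low 2.46 ± 0.305 to 3.41 ± 0.237 CPM (0.46, edgeR adjusted p = 0.0201), though DESeq2 (adjusted p = 0.106), scaling on genes without CCTTTC and leaving out shNT library 1, shNT library 2 or shYES1 library 3 (adjusted p = 0.0802, 0.0542 and 0.0965) each ended that call. TFR2 and STEAP4 had 0 reads in every library, which allows up to 3 reads, or 0.153 to 0.257 CPM (counting error only).

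Genes that control the sensors and the receptor transcript went both ways. In this list 4 of 9 genes rose, 1 fell and 4 were not called (median 0.08, but -0.01 with scaling on genes without CCTTTC, and 8 higher and 1 lower with library size only). Over all tested genes 32.5% were called higher and 32.8% lower. ZC3H12A, a ribonuclease that cuts the TFRC transcript among others, fell from 232 ± 0.727 to 153 ± 2.86 CPM (-0.60). RC3H2, an RNA-binding protein that destabilises transcripts through stem-loops, rose from 44.9 ± 1.86 to 64.9 ± 2.36 CPM (0.54). ZFP36, which targets AU-rich transcripts for decay, rose from 11.7 ± 0.437 to 24.4 ± 0.235 CPM (1.06). FBXL5, the iron-sensing ligase subunit that marks IREB2 protein for degradation and named here after its values were seen, stood at 42.4 ± 0.620 and 46.5 ± 2.10 CPM (0.14, edgeR adjusted p = 0.0152), and with scaling on genes without CCTTTC it was no longer called, since the 2 higher calls of the list were then ZFP36 and RC3H2.

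Of the iron chaperones, partners of export and heme-handling genes taken as a single list, 8 of 13 tested were up and 2 down (median 0.37). That count pools kinds of genes that did not move alike: HMOX1 and PCBP4 rose, while PCBP2 and CP fell. With scaling on genes without CCTTTC, 7 were up and 4 down (median 0.28). HMOX1, which frees iron from heme, rose from 35.6 ± 1.25 to 62.2 ± 1.26 CPM (0.81). PCBP4, a relative of the iron chaperones, rose from 16.7 ± 0.393 to 28.1 ± 1.57 CPM (0.76). PCBP2, a chaperone that hands iron on in the cytosol, fell from 259.9 ± 7.39 to 165 ± 5.16 CPM (-0.65), and its relative PCBP1 was not called (-0.03). CP, which encodes ceruloplasmin, the ferroxidase that works with ferroportin, fell from 402 ± 12.5 to 167 ± 1.37 CPM (-1.27). Exons of PCBP2, PCBP4 and TF overlap other annotated genes on the same strand, as do those of SLC39A8, ZC3H12A, CPOX and CDC14A, so their values are uncertain.

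**Figure D4:**
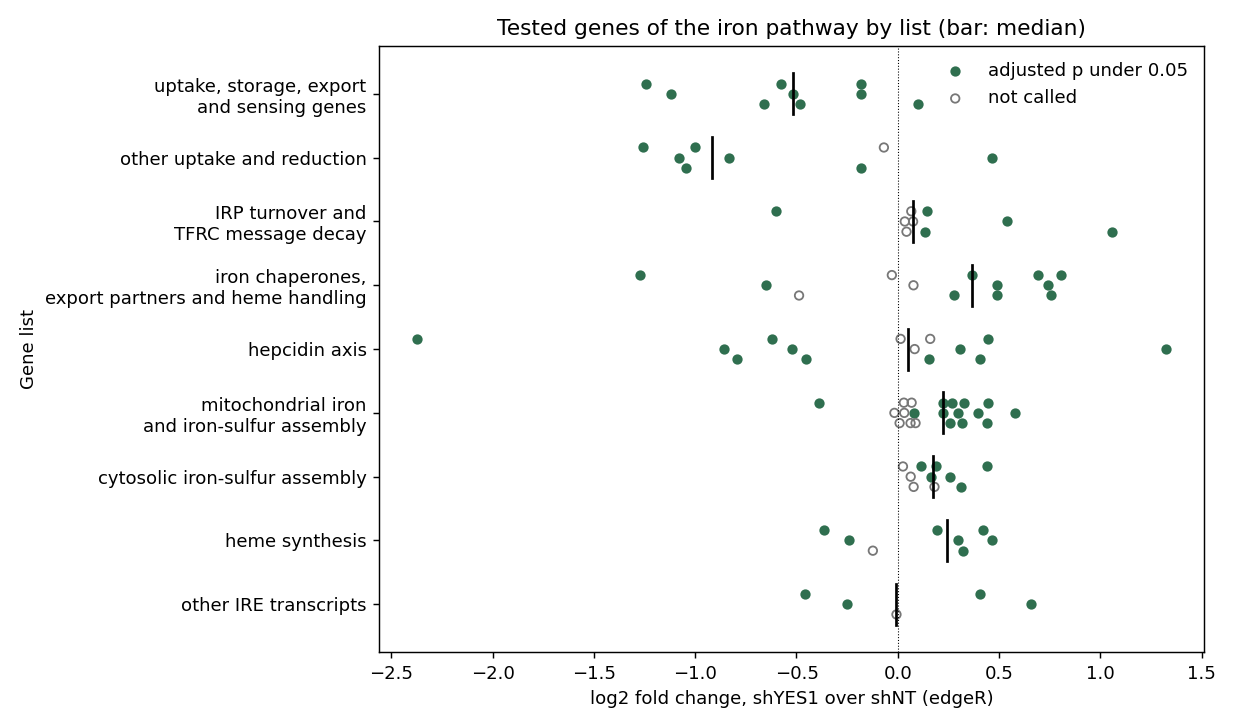
log2 fold change (shYES1 over shNT, edgeR) of the tested genes of each iron list, filled where the adjusted p was under 0.05 and open where not, with the list median as a bar. The 9 uptake, storage, export and sensing genes have a median of -0.52 and the other uptake genes of -0.92. The medians of the mitochondrial list, the cytosolic iron-sulfur list and the heme synthesis list lie between 0.17 and 0.24. The list that holds the heme-handling genes has a median of 0.37.

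The hepcidin axis was partly silent. HAMP, which encodes hepcidin, had 0 reads in every library, with the same limit as TFR2. Of 14 tested genes of the axis 5 rose and 6 fell (median 0.05, and -0.04 with scaling on genes without CCTTTC). Those counts stood beside 32.5% called higher and 32.8% called lower over all tested genes. FURIN, a protease that processes hepcidin and other precursors, rose from 147 ± 4.23 to 368 ± 2.96 CPM (1.33), and the BMP receptor gene ACVR1 rose from 73.3 ± 1.92 to 99.9 ± 1.25 CPM (0.45). ERFE, which encodes the hepcidin-lowering hormone erythroferrone, fell from 3.59 ± 0.460 to 0.652 ± 0.249 CPM (-2.38), and BMP2 from 2.46 ± 0.255 to 1.34 ± 0.165 CPM (-0.86).

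In the mitochondrial iron and iron-sulfur list 12 of 20 rose, 1 fell and 7 were not called (median 0.23), but only 7 rose with DESeq2 and 6 with scaling on genes without CCTTTC. ISCA1 (0.58) and ISCA2 (0.45), which help build iron-sulfur clusters, rose, and SLC25A37, the mitochondrial iron importer mitoferrin, fell from 316 to 241 CPM (-0.39). In the cytosolic iron-sulfur list 6 of 10 rose and 0 fell (median 0.17), among them CIAO3 (0.44) and CIAO2A (0.31), parts of the targeting machinery. That count was 9 under library-size scaling and 3 with scaling on genes without CCTTTC. The lowest log2 fold change in the list was 0.03, so 0 genes were lower at an unadjusted p under 0.05 in edgeR, and limma-voom and DESeq2 called 0 lower.

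In heme synthesis 5 of 8 rose and 2 fell (median 0.24). With scaling on genes without CCTTTC, 4 rose and 3 fell (median 0.15). ALAD, the second enzyme of the path, rose from 58.4 ± 0.906 to 80.5 ± 2.38 CPM (0.47) and ALAS1, the rate-limiting enzyme outside red cells, from 45.3 ± 1.25 to 61.0 ± 1.98 CPM (0.42). CPOX fell from 78.0 ± 2.37 to 60.6 ± 2.21 CPM (-0.36). PPOX fell by 0.24 (edgeR adjusted p = 0.0218), a call lost with DESeq2 (0.128), with library size only (0.174) and without shNT library 1, shNT library 3 or shYES1 library 3 (adjusted p = 0.0841, 0.154 and 0.198).

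Of 7 other transcripts known to carry an iron-responsive element, 5 were tested, 2 rose and 2 fell. EPAS1, which encodes HIF-2 alpha and has its element in the 5' UTR, fell from 431 ± 15.9 to 362 ± 15.8 CPM (-0.25). CDC42BPA rose from 143 ± 12.2 to 224 ± 4.08 CPM (0.66) and CDC14A fell (-0.46), each a gene whose transcripts can carry an element in the 3' UTR.

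By a rule that ranks genes of at least 5 CPM by the correlation of log2 CPM with a member over the 6 libraries, the closest to TFRC were LCP1, KIRREL1 and CEP170 (Pearson r 0.9995 to 0.9996). The closest to FTH1 were CXCL12, FBXO32 and CRTAP, whose log2 fold changes were -1.38, -1.83 and -0.98, and the closest to FTL were ID2, SLX4IP and ANXA3 (r 0.996 to 0.999). The 6 points share a split into 2 groups, so any gene with tight groups and the same direction comes close, and these names are a description only.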

How the data were processed

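RNA was measured in 6 SNU-387 libraries, 3 shNT and 3 shYES1, made from poly(A) RNA with a stranded kit, per the labels' protocols. The authors deposited raw read counts per gene, unstranded and for each strand, made with CASAVA 1.8.2, Trimmomatic 0.35 and STAR 2.5.1b on GRCh38, per the submitters' processing notes. No source used here gives the annotation release. Reverse-strand counts were used, since 93.5% to 94.0% of stranded gene reads fell there. Reads given to no gene (19.8% to 20.3%) were left out. Of 58219 identifiers 57437 matched a symbol and 57881 GENCODE release 29.

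Counts were analysed genome-wide in R 4.3.3 with edgeR 4.0.16 (filterByExpr with minimum count 10 and minimum total 15, TMM, robust quasi-likelihood test, Benjamini-Hochberg over 14239 genes, called at 0.05). The standard error is the log2 fold change divided by the square root of F, and 95% intervals follow from it. Within-library ratios were compared by exact permutation tests. Simulated data held 14066 genes, of which 200 were changed. The test called 46% of genes given a log2 change of 0.25, 84% at 0.5, 98% at 1 and 96% at 2. Of all calls 4.14% were false. Far more genes were called in the real data (65.3%), so these rates may not carry over.

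The members and lists were chosen with earlier results of these data known. Named genes are YES1, the 9 members, the 2 largest called rises and falls of each list, and 3 nearest genes for TFRC, FTH1 and FTL. Alternatives were other scalings, filters, DESeq2 1.42.0, limma-voom (limma 3.58.1), unstranded counts, a block and leaving out each library. The 1.2-fold test was chosen after seeing the data. The values of 1 gene that the naming rule selects are not reported here.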

Additional observations from a re-analysis of the deposited data

How the results depend on the processing

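Of the 9 iron genes, 8 kept direction and call under every alternative but the 1.2-fold test, which was chosen after seeing the data. STEAP3 did not: with scaling on genes without CCTTTC its log2 fold change was 0.0079. In the test against 1.2-fold, 5185 genes were called in place of 9299, and STEAP3 (0.10), SLC11A2 (-0.18) and FTL (-0.18) were no longer called, since that test asks for a larger change. With unstranded counts the log2 change of TFRC per FTH1 was 0.56 (0.60 with reverse-strand counts) and of FTH1 per FTL -0.90 (-0.94). For called members of the lists, receptor and sensor control gave 9 with library size only, 3 with scaling on genes without CCTTTC and 3 in the 1.2-fold test, in place of 5. Mitochondrial iron and iron-sulfur assembly gave 7 with scaling on genes without CCTTTC, 8 with DESeq2 and 5 in the 1.2-fold test, in place of 13. Cytosolic assembly gave 3 and 1 in the scaling and 1.2-fold settings in place of 6, heme synthesis 3 in the 1.2-fold test in place of 7, and the other IRE transcripts 2 in place of 4. Beyond what each setting's construction shows, the cause was not tested. The sample numbers are not said to pair the libraries, and same-numbered libraries deviated together at r = -0.00499, 0.0274 and 0.00062. With the replicate block 9297 genes were called and no call of a member changed. Leaving out a library gave 8751 to 9078 called genes. Among the 9 iron genes depth limits SLC40A1 most, with 13 to 36 reads per library.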

Other observations

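How FTH1 was counted changes its apparent level far more than its fold change. FTH1 shares exonic positions with BEST1, which lies on the other strand. In the unstranded column FTH1 kept 16.97% to 19.2% of its reverse-strand reads (29506 in place of 153692 in shNT library 1, and 17865 in place of 93681 in shYES1 library 1). FTL and TFRC kept nearly the same number of reads in either column (39781 against 39514 for FTL and 8151 against 8124 for TFRC in shNT library 1). The forward-strand column assigned 124906, 131785 and 157254 reads to BEST1 in shNT and 76372, 53005 and 89337 in shYES1, against 578 to 1181 reads in the reverse-strand column. Forward-strand reads at BEST1 lie on the strand of FTH1, so they do not measure the level of BEST1. The log2 fold change of FTH1 was -1.07 with unstranded counts (edgeR adjusted p = 0.000215) and -1.12 with reverse-strand counts, lower in all 3 shYES1 libraries in both. BEST1 was singled out after its values were seen.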
